A study of Mus musculus with 2 samples.

Results

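Mir532, Mir188, Mir362, Mir501 and Mir500 are 5 miRNA genes that lie together in 1 intron of Clcn5 on the mouse X chromosome. They were chosen by their annotated symbols, not by their values, out of 2202 miRNA genes in the count tables, and all 5 reached the detection minimum of 10 counts in both libraries, as did 358 genes in all. The libraries are small RNA libraries of adrenal gland from female B6CASTF1/J mice (an F1 cross of C57BL/6J with CAST/EiJ), taken at 14 days of age, with no treatment named in the labels. The series holds 1 group of 2 libraries, biological replicates 2 and 1, so the data allow levels and the spread between libraries to be described but no comparison of conditions. The label of replicate 2 names 1 numbered female and that of replicate 1 names 3 females, although the donor identifier is the same for the 2 libraries. The p-values below therefore compare the reads of 2 libraries, and whether they also reflect separate animals cannot be told from the labels.

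MicroRNAs are cut from hairpin precursors and repress messenger RNAs that pair with bases 2 to 8 of the mature strand, the seed. An intronic miRNA can be carried by the transcript of its host gene or by a transcript from a start site of its own, and hairpins in a common transcript can still differ in how well they are processed and how long the mature strand lasts. The host Clcn5 encodes ClC-5, an endosomal exchanger of chloride and protons known mainly from the proximal tubule of the kidney, where its loss in humans causes Dent disease. The hairpins of this intron are conserved among mammals. In mouse, miR-188 is known from bone marrow stromal cells, where it favours fat over bone formation with age, and miR-501 from activated muscle progenitors. In human tumour cells, miR-362 and miR-500 are known to repress CYLD, a deubiquitinase that restrains NF-kappaB signalling, and miR-532-5p to repress the transcription factor RUNX3. No role of these genes in the adrenal gland is given in the labels.

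All 5 hairpins lie on the minus strand of chromosome X, within chrX:7237683-7248497 of GENCODE M21 on build mm10, a stretch of 10815 bases. The intron that holds them runs from 7213011 to 7316658, a length of 103648 bases, and is shared by 3 annotated Clcn5 transcripts, 2 of them protein-coding. No member overlapped an annotated exon of Clcn5. Along the direction of transcription Mir532 (ENSMUSG00000070139.1, 7248402 to 7248497) comes first. Mir188 (ENSMUSG00000065398.1, 7247989 to 7248056) follows after a gap of 345 bases. Mir362 (ENSMUSG00000070100.1, 7241982 to 7242046) lies a further 5942 bases on. Mir501 (ENSMUSG00000076251.1, 7241243 to 7241351) follows after 630 bases, and Mir500 (ENSMUSG00000070108.2, 7237683 to 7237774) after 3468 bases. The cluster thus has a 5′ pair, Mir532 and Mir188, and a downstream group of Mir362, Mir501 and Mir500.

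The hairpins are shown because the sequences fall into the same subgroups as the positions. They are RefSeq sequences of build GRCm38.p6, with the mature strands listed by RefSeq in capitals, and their coordinates equalled those of GENCODE for all 5 genes:
Mir532: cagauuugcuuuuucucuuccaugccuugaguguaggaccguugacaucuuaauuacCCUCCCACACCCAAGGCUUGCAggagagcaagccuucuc
Mir188: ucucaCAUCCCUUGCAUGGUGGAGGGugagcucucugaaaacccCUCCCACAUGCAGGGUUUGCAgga
Mir362: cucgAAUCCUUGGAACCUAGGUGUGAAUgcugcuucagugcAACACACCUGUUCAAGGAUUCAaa
Mir501: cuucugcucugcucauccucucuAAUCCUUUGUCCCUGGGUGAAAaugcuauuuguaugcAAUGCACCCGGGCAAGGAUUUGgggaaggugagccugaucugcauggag
Mir500: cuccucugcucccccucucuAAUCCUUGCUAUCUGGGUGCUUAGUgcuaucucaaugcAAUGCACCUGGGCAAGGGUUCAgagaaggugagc

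In pairwise alignments, the hairpins of Mir501 and Mir500 were the most alike of the 10 pairs, with 79.3% identity over 92 aligned positions. Aligned positions leave out overhanging ends, as the Mir501 hairpin alone has 109 bases. Mir362 shared 72.7% with Mir500 and 67.6% with Mir501. Mir532 and Mir188 shared 69.6% over 69 positions, and the 6 pairs across the subgroups shared between 54.4% and 61.5%.

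The mature strands are given with the seed, bases 2 to 8, in capitals, since the seed sets which messages a miRNA can pair with. RefSeq gave 9 mature strands, and miR-532-5p is named only. The 3′ strands of the downstream group were as follows:
miR-501-3p: aAUGCACCcgggcaaggauuug
miR-500-3p: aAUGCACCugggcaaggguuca
miR-362-3p: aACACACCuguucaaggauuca
The first 2 have 1 seed in common and 81.8% identity over the whole strand, while miR-362-3p has another seed. The 5′ strands of the same hairpins were close to each other as well:
miR-362-5p: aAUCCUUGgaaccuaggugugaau
miR-500-5p: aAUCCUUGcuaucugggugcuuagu
miR-501-5p: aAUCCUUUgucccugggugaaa
Here miR-362-5p and miR-500-5p had the same seed, and miR-501-5p matched both over bases 2 to 7. The strands of the 5′ pair carried other seeds:
miR-188-5p: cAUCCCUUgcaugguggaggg
miR-188-3p: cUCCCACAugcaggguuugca
miR-532-3p: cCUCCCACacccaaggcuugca
A run of 8 bases, CUCCCACA, starts at base 2 of miR-532-3p and at base 1 of miR-188-3p, so their seeds are offset by 1 base. These 2 strands had 81.0% identity over 21 aligned positions.

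Counts are per hairpin, so it cannot be said which strand of a hairpin the reads came from. Of the 36 pairs of the 9 strands, 2 shared a seed and 4 shared bases 2 to 7. Compared without gaps, no member strand had fewer than 4 mismatches to any other mouse hairpin in the RefSeq table, and wherever 4 were found the other hairpin was a member. In the authors' counting, reads with more than 1 place in the genome entered no gene, and they made up 24.98% of reads in replicate 2 and 28.0% in replicate 1. How many of them came from this cluster was not tested. Outside the cluster, the seed of miR-362-3p is shared by miR-329-3p of the imprinted locus on chromosome 12, whose gene Mir329 had 762 counts in replicate 2 and 813 in replicate 1. The seed of miR-188-5p is shared by miR-7061-3p, whose gene Mir7061 was not detected, with 1 count in replicate 2 and 0 in replicate 1. The other seeds of the cluster occur in no other mouse strand of the RefSeq table.

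The miRNA genes took 5034257 of 11190481 reads in replicate 2 and 3797107 of 10720796 reads in replicate 1. Levels are in CPM, counts scaled to a common total of miRNA counts per library. The libraries differed in makeup, since Mir122, the main miRNA of hepatocytes, took 21.5% of the miRNA counts in replicate 2 and 0.290% in replicate 1. This lowers the CPM of every other gene in replicate 2. Ratios between libraries are therefore given after TMM scaling, which trims extreme genes. No miRNA gene defines the adrenal gland alone, so the tissue label was not checked against a defining marker. In whole tissue, fewer cells of a type and less RNA per cell cannot be told apart.

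The cluster as a whole had 5692 counts in replicate 2 and 6977 in replicate 1. In replicate 2 this was a share of 0.113% (Wilson 95% interval 0.110 to 0.116) of all miRNA counts. In replicate 1 the share was 0.184% (0.179 to 0.188), and the cluster had a mean of 1484 ± 500 CPM (SD, n = 2). With Mir122 left out of the totals the mean was 1641 ± 285 CPM. Reads carry no molecular identifiers, so the intervals cover counting error only. On the X chromosome, 36 of 142 annotated miRNA genes were detected, and the cluster held 3.29% of their counts in replicate 2 and 3.41% in replicate 1.

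Mir532, the most 5′ hairpin, was the highest member. It had 2814 counts (559 CPM) in replicate 2 and 3511 counts (925 CPM) in replicate 1, a mean of 742 ± 259 CPM (SD, n = 2) and rank 92 among the 358 detected genes. Both values lay above those of every other member in either library. Mir188, its neighbour 345 bases downstream, had 966 counts (192 CPM) in replicate 2 and 1124 counts (296 CPM) in replicate 1, with a mean of 244 ± 73.6 CPM and rank 142. The 5′ pair thus held both a high and a middle level within 509 bases of sequence.

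In the downstream group, Mir501 stood highest. It had 1296 counts (257 CPM) in replicate 2 and 1531 counts (403 CPM) in replicate 1, a mean of 330 ± 103 CPM and rank 128. Mir500, its closest relative in sequence, had 401 counts (79.7 CPM) in replicate 2 and 587 counts (155 CPM) in replicate 1, a mean of 117 ± 53.0 CPM and rank 179. Mir501 was above Mir500 in both libraries, and their CPM values did not overlap. Mir362 was the lowest member. It had 215 counts (42.7 CPM) in replicate 2 and 224 counts (59.0 CPM) in replicate 1, a mean of 50.8 ± 11.5 CPM and rank 222. In both libraries Mir362 lay below Mir501, which is 630 bases downstream of it. The limit that a count of 0 allows, 3 counts, was 0.596 CPM in replicate 2 and 0.790 CPM in replicate 1, far under all members.

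**Figure D1:**
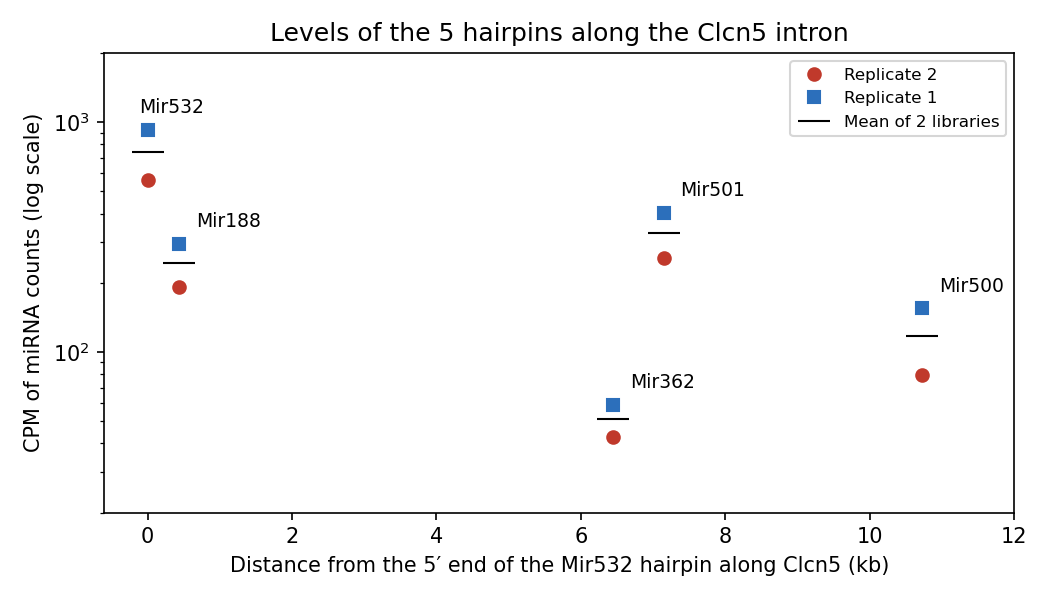
CPM on a log axis against the distance of each hairpin from the 5′ end of the Mir532 hairpin, with replicate 2 as circles, replicate 1 as squares and the mean of the libraries as a bar. Mir532 stands highest at 559 and 925 CPM and Mir362 lowest at 42.7 and 59.0 CPM, and the levels do not fall steadily with distance, since Mir501 lies above both Mir188 and Mir362.

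The order of the CPM levels was Mir532, Mir501, Mir188, Mir500, Mir362 in both libraries. The highest mean was 14.6 times the lowest, with 13.1 in replicate 2 and 15.7 in replicate 1. These are ratios of reads, and how evenly reads of different genes reflect amounts of RNA was not tested. Between neighbours in that order, Mir532 was 2.17 times Mir501 in replicate 2 and 2.29 times in replicate 1, and their values did not overlap. Mir501 was 1.34 times Mir188 in replicate 2 and 1.36 times in replicate 1. On unscaled CPM the value of Mir501 in replicate 2 was below that of Mir188 in replicate 1. After TMM scaling the values did not overlap, with 299 CPM in replicate 2 and 347 CPM in replicate 1 for Mir501, and 223 CPM in replicate 2 and 255 CPM in replicate 1 for Mir188. Mir188 was 2.41 times Mir500 in replicate 2 and 1.91 times in replicate 1, without overlap. Mir500 was 1.87 times Mir362 in replicate 2 and 2.62 times in replicate 1, also without overlap.

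A read covers a mature strand and not the hairpin, so CPM was not divided by hairpin length above. Per base of hairpin, a scale chosen once the values had been seen, the mean levels were 7.73 CPM for Mir532, 3.59 for Mir188, 3.03 for Mir501, 1.27 for Mir500 and 0.782 for Mir362. On that scale Mir188 and Mir501 change places and the highest is 9.88 times the lowest.

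The division of the cluster among its members needs no scaling between libraries. Mir532 made up 49.4% of the cluster's counts in replicate 2, with a Wilson 95% interval of 48.1 to 50.7, and 50.3% in replicate 1 (49.1 to 51.5). Mir501 made up 22.8% in replicate 2 (21.7 to 23.9) and 21.9% in replicate 1 (20.99 to 22.9). Mir188 made up 17.0% in replicate 2 (16.0 to 18.0) and 16.1% in replicate 1 (15.3 to 17.0). The intervals of the 2 libraries overlapped for these 3 members, which held most of the counts. Mir362 made up 3.78% in replicate 2 (3.31 to 4.30) and 3.21% in replicate 1 (2.82 to 3.65), also with overlap. Mir500 made up 7.04% in replicate 2 (6.41 to 7.74) and 8.41% in replicate 1 (7.78 to 9.09), and its intervals did not overlap. Set against the summed counts of the other 4 members, Mir500 had a log2 ratio of -0.28, replicate 2 over replicate 1, and Mir362 one of 0.24, while Mir532, Mir188 and Mir501 stood at -0.05, 0.09 and 0.07.

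**Figure D2:**
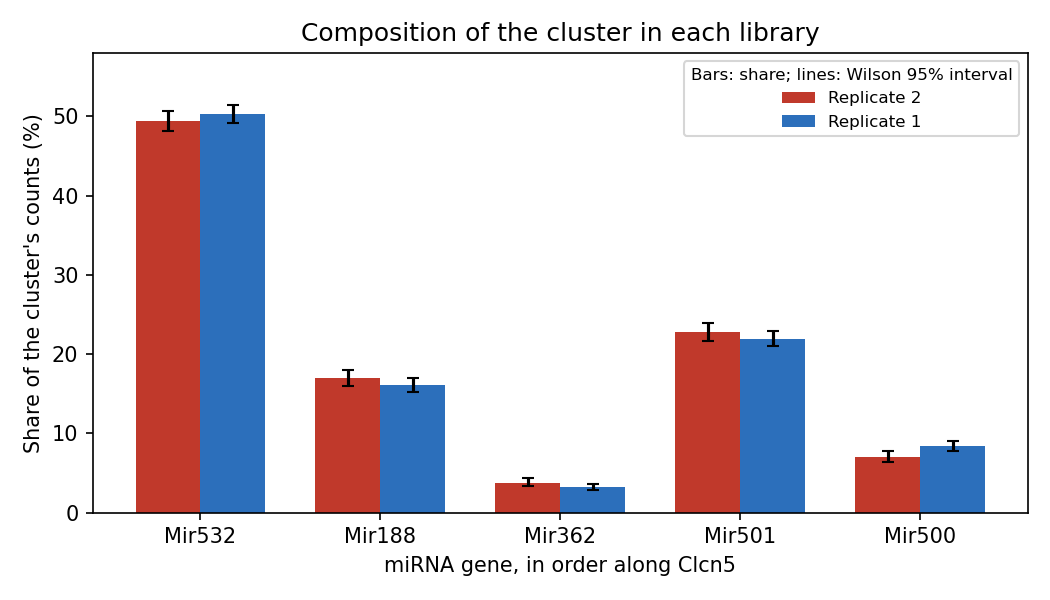
Share of the summed counts of the 5 hairpins taken by each, in percent, with replicate 2 left of replicate 1 and Wilson 95% intervals as lines. The shares of Mir532 are 49.4% and 50.3%, and the intervals of the libraries miss each other only for Mir500, at 7.04% and 8.41%.

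Between the libraries the whole cluster was slightly lower in replicate 2. The log2 ratio of the summed counts, replicate 2 over replicate 1, was -0.27 after TMM scaling (95% counting interval -0.32 to -0.22), while the median over the 358 detected genes was -0.06. With Mir122 left out of the totals and the scaling, the ratio of the cluster was again -0.27. This alternative could hardly differ, because TMM trims so extreme a gene in any case. With library totals in place of TMM it was -0.70, and the median of all detected genes stood at -0.49.

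All 5 members had ratios below 0, against 53.4% of all detected genes. Mir500 had the lowest log2 ratio at -0.53 (95% counting interval -0.71 to -0.34), Mir532 stood at -0.30 (-0.37 to -0.22) and Mir501 at -0.22 (-0.33 to -0.11). Mir188 stood at -0.20 (-0.32 to -0.07) and Mir362 at -0.04 (-0.31 to 0.24). With DESeq2 size factors the ratio of Mir362 turned to 0.02, so its direction depends on the scaling. After TMM scaling, the median absolute log2 ratio was 0.22 over the members and 0.46 over all detected genes. Detected genes go down to 10 counts, while the lowest count of a member was 215, so the 2 medians are not at like depth. Mir500 had a larger absolute ratio than 55.3% of detected genes, and Mir362 a larger one than 5.87%.

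**Figure D3:**
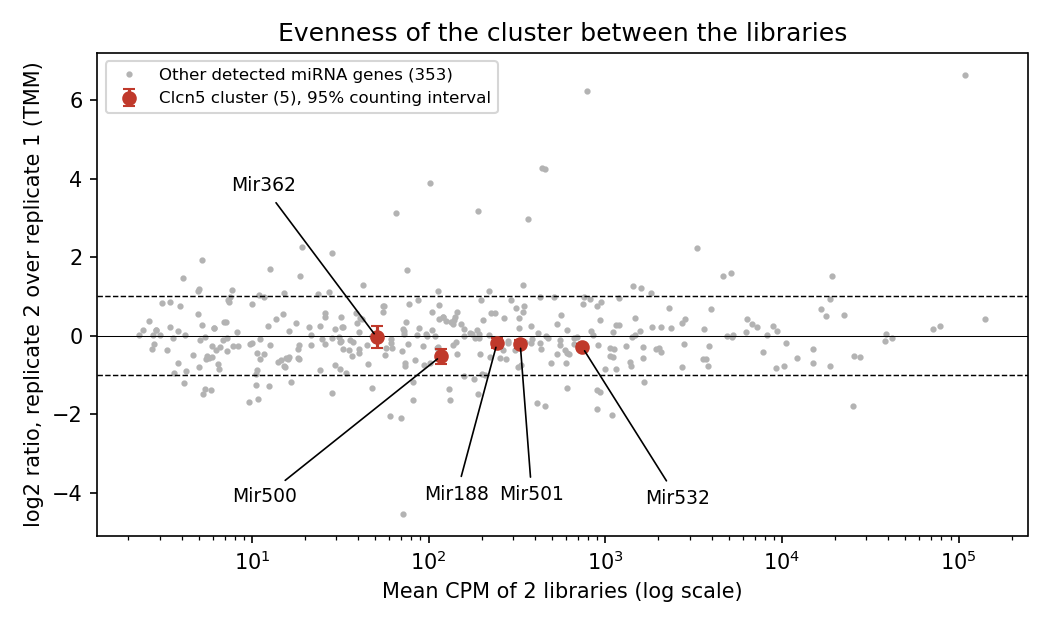
log2 ratio of replicate 2 over replicate 1 after TMM scaling against mean CPM on a log axis, for the 5 members with 95% counting intervals and for the other 353 detected miRNA genes in grey, with dashed lines at the threshold of 1 in each direction. The members lie between -0.53 and -0.04, all inside the dashed lines.

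The counts of each detected gene were set against each other in an exact binomial test, two-sided, adjusted by Benjamini-Hochberg over all 358 genes. With a minimum absolute log2 ratio of 1 as well, 0 of the 5 members were called, against 17.9% of all detected genes. Without the ratio minimum, 4 of the 5 members passed an adjusted p of 0.05, against 67.9% of detected genes, and 4 passed unadjusted, against 69.0%. All 4 were lower in replicate 2, as were 35.2% of detected genes at that threshold, while 32.7% were higher. Mir532 had an adjusted p of 1.1e-15, Mir500 3.1e-08, Mir501 0.00013 and Mir188 0.0035 in this exact test, and Mir362 had 0.867. The binomial test counts only the error of sampling reads. In edgeR's exact test, which takes its dispersion from the same 2 libraries (coefficient of variation 0.444), 0 members passed at an adjusted p of 0.05, against 1.68% of detected genes. At an unadjusted p under 0.05 in edgeR's exact test, 0 members passed as well, against 4.19%.

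Neighbouring miRNA genes of other loci give a scale for this evenness. Groups of at least 3 detected genes on 1 strand, each under 10 kb from the next, numbered 18. By a strict rule, 4 of these each lie wholly within introns of 1 protein-coding host gene. The groups that start with Mir669e and with Mir467e have the same host, Sfmbt2, so the 4 groups do not have 4 separate hosts. A group with any gene that overlaps an exon of any annotated host transcript was not counted among the 4. The log2 ratios of the Clcn5 cluster spanned 0.49, while those of the other 17 groups spanned between 0.43 and 3.47, with a median of 1.38. The only group with a narrower span was that of Mir25, Mir93 and Mir106b on chromosome 5, named here after its values were seen, at 0.43 with 3 genes. Groups differ in their number of genes and in depth, so the spans are a description without a test. The spread of levels within the cluster was not narrow, since 8 of the other 17 groups had a smaller ratio of highest to lowest mean CPM than its 14.6, and the median of those groups was 23.3.

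**Figure D4:**
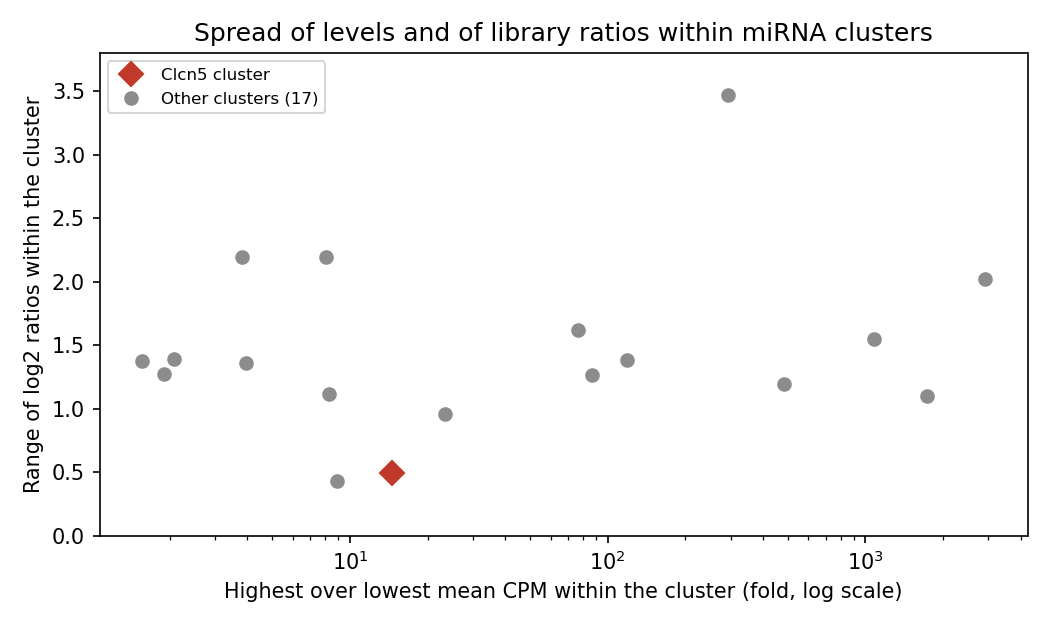
Range of log2 ratios within a cluster, replicate 2 over replicate 1, against the ratio of its highest to its lowest mean CPM on a log axis, for 18 clusters of at least 3 detected miRNA genes. The Clcn5 cluster sits near the bottom at 0.49 on the vertical axis and in the middle of the horizontal axis at 14.6.

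The 3 groups nearest in summed level to the Clcn5 cluster had wider spans. Mir182, Mir96 and Mir183, a cluster of sensory and neuroendocrine cells on chromosome 6, had 5791 counts in replicate 2 and 3405 in replicate 1. Their log2 ratios ran between -0.47 for Mir96 and 1.14 for Mir183, a span of 1.62, with Mir182 at 0.76. Mir96 had only 41 counts in replicate 2 and 58 in replicate 1, fewer than any member of the Clcn5 cluster. The width of this span thus rests on a gene of low count. Mir467e, Mir467d, Mir669c and Mir669o, in an intron of the imprinted gene Sfmbt2 on chromosome 2, had 4899 counts in replicate 2 and 3798 in replicate 1. The lowest ratio was -0.36 for Mir467e and the highest 1.00 for Mir467d, a span of 1.36. Mir341, Mir1188 and Mir370 on chromosome 12 had 2200 counts in replicate 2 and 2271 in replicate 1, with a span of 0.96.

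Other X-linked miRNA genes showed both directions. Of the 31 detected outside the cluster, 1 was called higher and 6 lower in replicate 2, and 24 were not called, against 9.22% called higher and 8.66% called lower among all detected genes. Mir221 and Mir222, a pair that represses the cell-cycle inhibitor p27, were among those called lower, at log2 ratios of -1.34 and -1.65. The median log2 ratio of the 31 was -0.18. Of these, 10 lie in an intron of a protein-coding gene, as the cluster does. After TMM scaling, 9 of the 10 had ratios above 0, with a median of 0.30. This direction depends on the scaling. Unscaled CPM was lower in replicate 2 for Mir652, Mir98, Mir361, Mir676, Mir224 and Mir1198, and higher for the rest of the 9. Mir652, in Tmem164, was the highest of them, with 6513 CPM in replicate 2 and 7103 CPM in replicate 1 and a log2 ratio of 0.30. Mir361, in Chm, had 1405 CPM in replicate 2 and 1758 CPM in replicate 1 and a ratio of 0.11. Mir98 and Mirlet7f-2, both in an intron of Huwe1, had ratios of 0.00 and 0.67. Mir676, Mir224, Mir1198 and Mir452 had ratios of 0.28, 0.29, 0.33 and 0.97, and Mir672 stood at -0.04. The difference in ratio between the cluster and these genes was not tested.

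With 2 libraries, likeness of pattern to other genes means little more than a like level. By the smallest distance in log2 of CPM plus 1 over the 2 libraries, the 3 genes nearest to Mir532 were Mir185 on chromosome 16, at a distance of 0.05, X-linked Mir672 at 0.21 and Mir134 on chromosome 12 at 0.22. Mir185 had 578 CPM in replicate 2 and 914 CPM in replicate 1. The nearest gene was Mir29c to Mir501, Mir144 to Mir188, Mir5099 to Mir500 and Mir184 to Mir362, at distances of 0.03, 0.17, 0.17 and 0.02. None of these lies in the Clcn5 intron.

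The strand columns are described for the members only, so what follows is not shown to be particular to this cluster. All 5 had 0 counts on the opposite strand in both libraries, and their counts without regard to strand equalled their own-strand counts. The cluster thus lost no reads to an antisense miRNA gene in either way of counting.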

How the data were processed

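The deposited values are raw read counts per hairpin gene for each of 2 small RNA libraries, with no normalization by the authors. Build mm10 and annotation GENCODE M21 are named in the deposited text files. Aligner, counter and trimming: not given in the sources used here. Both tables hold 4 summary lines, which stayed out of library sizes, and 3 count columns, of which the third column of the table, read from its values as the gene's own strand, was used. All 2202 identifiers matched GENCODE M21. Unmapped reads were 23.9% in replicate 2 and 26.9% in replicate 1, and reads on no feature 6.12% and 9.65%.

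Detection needed 10 counts in each library. TMM factors from detected genes were 0.862 in replicate 2 and 1.16 in replicate 1, with a prior count of 0.5. Intervals of ratios are exact Clopper-Pearson. The counts of a detected gene were compared by an exact binomial test, two-sided, with p adjusted by Benjamini-Hochberg over all detected genes, since edgeR's quasi-likelihood test needs replicates of 2 conditions. The test was checked on simulated counts with counting noise alone. That check therefore does not cover variation between libraries beyond counting. The members, lists and rules were chosen with earlier results of these data known. The rule for named genes took the members, the genes nearest in level, the 3 clusters nearest in summed level and X-linked genes in introns; further X-linked genes were named after their values were seen. Of the X-linked genes in introns, 1 is not reported by name here, and X-linked genes outside introns are given mainly as counts. Alternatives were other scalings (library totals, DESeq2 size factors, Mir122 left out), count minimums of 1 and 100, a prior count of 5, counting without strand, thinning, edgeR's exact test, other totals and each replicate left out. Tools were Python 3.11.15, scipy 1.17.1, Biopython 1.88, R 4.3.3, edgeR 4.0.16 and DESeq2 1.42.0.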

Additional observations from a re-analysis of the deposited data

How the results depend on the processing

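The direction of the cluster's ratio held under all 5 alternatives tried. The log2 ratio of the summed counts, -0.27 with TMM, was -0.70 with library totals and -0.21 with DESeq2 size factors, by construction of these scalings, which move every gene alike. The count of 0 members called held under all 9 alternatives. Count minimums of 1 and 100 and a prior count of 5 could hardly change it, since the lowest count of a member was 215. Leaving out Mir122, counting without strand and DESeq2 size factors could hardly do so either. They left Mir500, the member with the largest ratio, at -0.53, -0.50 and -0.47. Thinning mainly lowers depth. As edgeR's exact test takes its dispersion from the same 2 libraries, ratios this small could hardly pass it. With library totals, Mir500 came close to the threshold of 1, at a log2 ratio of -0.96. Of the 358 detected genes, 97 were called with library totals, 79 of them lower and 18 higher in replicate 2. With TMM, 64 were called, 31 lower and 33 higher. Of 30 alternative values for single members' ratios, 29 kept direction and stayed uncalled, and the ratio of Mir362 turned to 0.020 with DESeq2 size factors. All 5 members stayed detected with a count minimum of 100. The summed level ranged between 1131 and 1837 CPM with each replicate left out, and the ratio of highest to lowest level between 13.1 and 15.7. Per hairpin base that ratio was 9.88, since Mir532 has a longer hairpin than Mir362. Counted without strand, the summed level was 1964 CPM. The members' counts were the same in that column, so the total of miRNA counts was smaller there. Which reads that total lacks was not tested. No paired analysis was possible because the series holds 1 group. The lowest members, Mir362 and Mir500, had the fewest counts and the widest counting intervals of their log2 ratios, and 2 libraries limit every SD.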
